A study of Rattus norvegicus with 8 samples.

Results

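Potassium channel genes were read in the whole brains of rats that had breathed the inhaled anaesthetic isoflurane once, for 1 of 3 durations. The genes are those whose symbol starts with Kcn, the prefix shared by potassium channel pore subunits and their accessory subunits. They were taken as every probe set, a group of short probes for 1 transcript, that the array's annotation pairs with a single such symbol. The rule found 82 probe sets for 54 genes, of 8740 probe sets and 4736 gene symbols on the array. All 82 carry the same symbol in RefSeq's gene table, matched by gene number. No potassium channel probe set differed between the groups in the test across all probe sets, and the text below gives what each reading was and how far the arrays spread.

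Total RNA of each brain was hybridised to 1 array, and 8 arrays were used. The 3 control rats were exposed to isoflurane for 3 min and perfused with ice-cold saline at once. Isoflurane at 2% was given for 1 hr to 2 rats and for 2 hr to 3 rats. All 8 rats were intubated, so the groups share the intubation and some contact with the anaesthetic, and no group was free of isoflurane. The labels state neither strain, age nor sex, and state the saline perfusion for the controls alone, so that exposure time and perfusion cannot be told apart. Each array is taken as 1 rat, as its label speaks of a rat. The p-values measure the spread between these arrays, part of which may be technical.

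Potassium channels let potassium ions leave or enter the cell down their gradient, which sets the resting potential and ends each action potential. Voltage-gated channels open on depolarisation, calcium- and sodium-activated channels open as these ions enter, inward rectifiers hold the resting potential, and tandem-pore (K2P) channels carry a leak current. Several K2P channels are known to be opened by volatile anaesthetics, and some voltage-gated and inwardly rectifying channels are also known to respond to them. Those are effects on channel proteins, while the arrays measure transcripts. In whole brain, a lower reading can mean fewer cells of a type or less RNA per cell, and these cannot be told apart.

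Values are the intensities of the deposited table, which has a 2% trimmed mean of 150.17 to 150.32 on every array. Readings below 9.1, the 20th percentile of all intensities, were set to that floor before the log2. Testing was limited to the 7770 probe sets that passed this floor on 2 or more arrays. Arrays differed in ways the groups do not explain. The highest intensity ran from 3504.2 to 37711.8, and it was above 20000 on control replicate 3, 1 hr replicate 1 and 2 hr replicate 3. The 5S ribosomal RNA control read 12.9 to 23.7 on control replicates 1 and 2 and 2 hr replicate 1, and 70.4 to 141.7 elsewhere. Neuron, astrocyte and oligodendrocyte markers, 10, 5 and 5 genes on the array, were all above the floor on all 8 arrays, which is what the labelled tissue holds. Control replicate 3 had the lowest mean log2 level of the 8 arrays for each of these 3 marker lists, with 7.05 for neurons against 7.68 to 8.24 elsewhere.

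Of the 82 potassium channel probe sets, 70 were tested (85.4%, against 88.9% of all probe sets). Above the floor on all 8 arrays were 50 (61%, against 64.4% of all), and 9 were above it on none (11%, against 6.66%). Each array had 60 to 63 of them above the floor. The 9 probe sets that stayed below it everywhere belong to Kcna2, Kcna3, Kcne1, Kcnj2, Kcnk3, Kcnma1, Kcnn3, Kcnq1 and Kcnq3. For 5 of these genes, Kcna2, Kcne1, Kcnk3, Kcnma1 and Kcnq3, another probe set was read, so a probe set below the floor does not show that the transcript was missing. Another 3 probe sets were above the floor on 1 array only and were not tested. They read 12.0 for Kcna6 (X17621cds_at) on 2 hr replicate 2, 22.3 for Kcnj13 on 2 hr replicate 3 and 24.4 for Kcnj6 on 2 hr replicate 3. In all, 6 genes had no tested probe set: Kcna3, Kcnj2, Kcnj6, Kcnj13, Kcnn3 and Kcnq1. Brightness also depends on the probes, so no order of transcript levels is read from it.

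**Figure D1:**
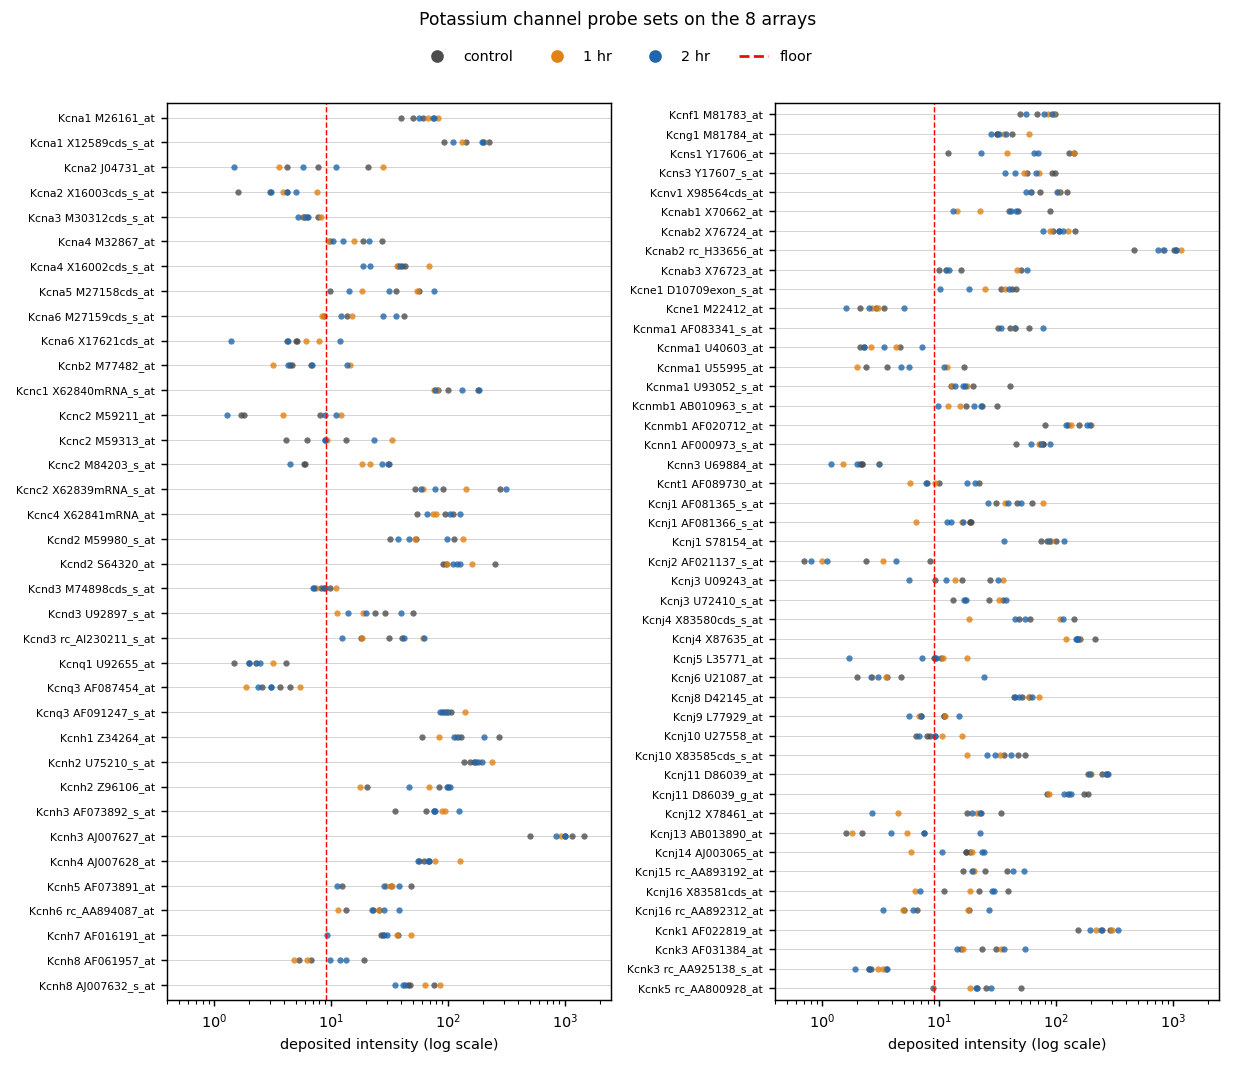
Deposited intensity (log axis) of all 82 potassium channel probe sets, 1 point per array, coloured by group, with the floor of 9.1 as a dashed line. The groups lie within each other's range for most probe sets, and 9 probe sets lie left of the floor on all 8 arrays.

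In the fit with limma across all 7770 probe sets, 0% of them passed a Benjamini-Hochberg adjusted p of 0.05 in any of the 4 comparisons, and 0 of the 70 potassium channel probe sets did. The lowest adjusted p of a potassium channel probe set was 1 at 2 hr against control, 1 at 1 hr against control, 1 at 2 hr against 1 hr and 0.999 for any exposure against control. At an unadjusted p of 0.05, 0 of 70 potassium channel probe sets passed at 2 hr against control, beside 1.79% of all tested. One, Kcnab1, passed at 1 hr against control, beside 2.68% of all. From 1 hr to 2 hr, 0 passed, beside 2.77%, and Kcnab1 alone passed for any exposure against control, beside 2.21%. These shares are at or below those of the whole array. The comparisons are not independent of each other: those with control share the 3 control arrays, and 2 hr against 1 hr shares its arrays with both.

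The changes were small and spread to both sides. Between 2 hr and control, 35 tested potassium channel probe sets read higher and 35 lower, with a median log2 change of 0.00099 against 0.018 for all tested probe sets. At 1 hr against control, 37 read higher and 33 lower, with a median of 0.063 against 0.054. From 1 hr to 2 hr, 32 read higher and 38 lower, with a median of -0.015 against -0.026. For any exposure against control, 36 read higher and 34 lower, with a median of 0.0069 against 0.037. These medians took either sign under other settings. A change beyond 1.5-fold either way was seen for 10% of them at 2 hr (13.8% of all tested), 17.1% at 1 hr (18.9%), 22.9% between 2 hr and 1 hr (19.2%) and 10% for any exposure (11.5%). Beyond 2-fold there were 1, 2, 2 and 1 probe sets in the same order. These are 1.43%, 2.86%, 2.86% and 1.43% of them, against 3.09%, 4.92%, 5.38% and 2.06% of all tested. The median standard error of these log2 changes was 0.43, 0.481, 0.481 and 0.388, each smaller than a 1.5-fold change but of the same order. The median SD within groups was 0.543 on the log2 scale for these probe sets and 0.511 for all tested, from 0.0987 for Kcnd3 (M74898cds_s_at), close to the floor, to 1.52 for the widest.

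**Figure D2:**
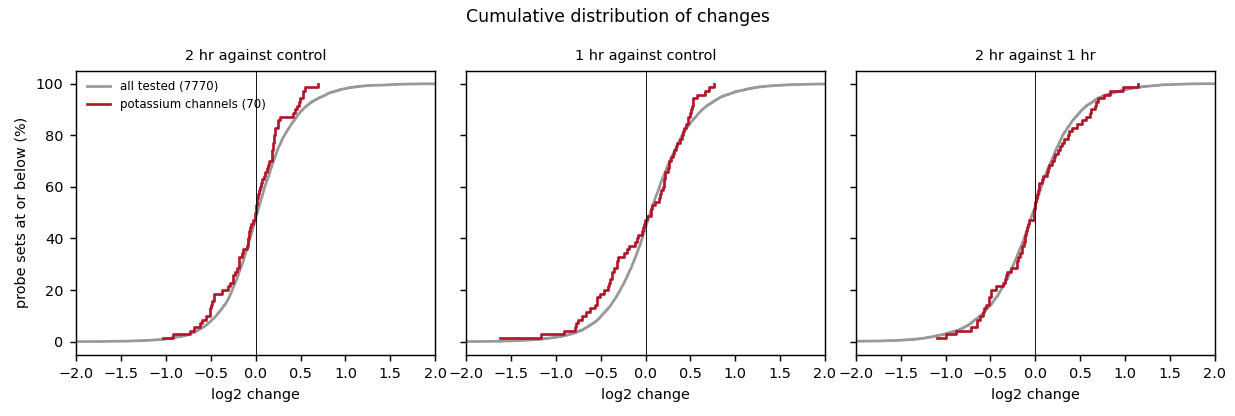
Share of probe sets (percent, vertical axis) at or below each log2 change (horizontal axis) in 3 comparisons, for the 70 tested potassium channel probe sets (red) and all 7770 tested (grey). The red and grey curves run close together and cross 0 near the same height, with 50% against 52.3% of probe sets reading higher at 2 hr.

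How often the arrays of a comparison did not overlap gave the same picture. Of the 70, 1 read higher on every 2 hr array than on any control array (2.9% of all tested) and 2 read lower (2.55%). At 1 hr against control, 6 were higher (7.54%) and 6 lower (5.11%). From 1 hr to 2 hr, 1 was higher (5.98%) and 5 lower (7.82%). For all 5 exposed arrays against the 3 controls, 1 was higher (0.927%) and 1 lower (1%). The 1 hr group holds 2 arrays, and groups of that size part more often.

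Among the voltage-gated pore subunits, Kcna1 to Kcna6 encode the Kv1 channels of axons and nerve terminals, which limit repetitive firing. They had 10 probe sets, of which 7 were tested. Of the 7, 4 read higher and 3 lower at 2 hr against control, with a median log2 change of 0.188, and at 1 hr 5 read higher and 2 lower, with a median of 0.22.

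Kcna1 (M26161_at) was the member of this group with the smallest p for a higher reading. Its intensities were 50.6, 40 and 61.6 in controls, 67.6 and 81.9 at 1 hr and 56.7, 74.3 and 76.4 at 2 hr. Every 1 hr array was above all controls, as were 2 hr replicates 2 and 3. This gave a log2 change of 0.46 (SE 0.35) at 2 hr and 0.52 (SE 0.31) for any exposure (limma, adjusted p = 1 and 0.999), and without control replicate 2 the change at 2 hr was 0.30. The other Kcna1 probe set (X12589cds_s_at) read 224.8, 92.8 and 143.5 in controls, 131.3 and 202.4 at 1 hr and 111.2, 201.3 and 197.7 at 2 hr. Its groups overlap throughout, and its log2 change was 0.19 (SE 0.39) at 2 hr.

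Kcna4, the pore subunit of a fast A-type current, was read by a pair of probe sets. X16002cds_s_at gave 37.6, 43.3 and 40.8 in controls, 69.0 and 36.6 at 1 hr and 39.1, 18.9 and 21.7 at 2 hr. The high 1 hr array and the low pair of 2 hr arrays made a log2 change of -0.99 (SE 0.50) at 2 hr against 1 hr (limma, adjusted p = 1), while 2 hr replicate 1 lay above 1 hr replicate 2. It was -0.54 without 1 hr replicate 1 and -1.45 without 1 hr replicate 2. M32867_at, with 9.8, 19.0 and 27.5 in controls, 15.7 and 9.4 at 1 hr and 12.7, 10.5 and 21.4 at 2 hr, gave 0.22 (SE 0.51) in that comparison, the opposite sign. Kcna2, Kcna5 and Kcna6 had log2 changes of -0.31, 0.25 and 0.41 at 2 hr, each under 1 standard error. Kcna3, a channel known from lymphocytes and microglia, was below the floor on every array.

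Kcnb2, a delayed rectifier subunit and the only Kcnb gene on the array, was at the floor on all 3 control arrays. Its intensities were 6.8, 4.7 and 4.5 in controls, 3.2 and 14.7 at 1 hr and 4.3, 6.9 and 13.8 at 2 hr. One array of each exposed group passed the floor, and the log2 change from the floor was 0.35 (SE 0.31) at 1 hr and 0.20 (SE 0.28) at 2 hr.

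The Kcnc genes encode the Kv3 channels that let fast-spiking neurons repolarise quickly. All 6 probe sets, for Kcnc1, Kcnc2 and Kcnc4, read higher at 2 hr than in controls, with log2 changes of 0.033 to 0.52 and a median of 0.163. Of the 6, 4 measure 1 gene, Kcnc2, and none of the 6 changes reached 1 standard error. At 1 hr 3 read higher and 3 lower.

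Kcnc1 read 100, 179.7 and 82.4 in controls, 80.6 and 76.2 at 1 hr and 185.5, 133.5 and 77.5 at 2 hr. Each 1 hr array was below all controls, and 2 hr replicates 1 and 2 stood well above the 1 hr arrays while 2 hr replicate 3 lay between them. Its log2 change was 0.67 (SE 0.46) at 2 hr against 1 hr (limma, adjusted p = 1) and 0.12 (SE 0.41) at 2 hr against control. Leaving out each array in turn gave 0.38 to 1.01 at 2 hr against 1 hr, the lower without 2 hr replicate 1 and the higher without 2 hr replicate 3. Within the 3 arrays of highest top intensity, 1 of each group, it was -0.06. Kcnc2 (X62839mRNA_s_at) ran from 52.5 to 282.0 within the controls alone and from 59.2 to 313.8 at 2 hr.

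Kcnd2 and Kcnd3 encode Kv4 channels, which carry the A-type current of dendrites. At 2 hr 1 of their 5 probe sets read higher and 4 lower, with a median log2 change of -0.056, and at 1 hr 3 read higher and 2 lower. Kcnd2 (S64320_at) read 97.0, 91.8 and 251.8 in controls, 162.4 and 99.3 at 1 hr and 118.9, 126.4 and 110.4 at 2 hr. Control replicate 3 was the highest of the 8 arrays, and the log2 change at 2 hr was -0.14 (SE 0.41).

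Kcnd3 (U92897_s_at) read 28.9, 50.6 and 23.8 in controls, 18.8 and 11.2 at 1 hr and 20, 39.5 and 14.0 at 2 hr. The 1 hr arrays were below every control, a log2 change of -1.17 (SE 0.57, 95% interval -2.45 to 0.11, limma adjusted p = 1), while the 2 hr arrays overlapped the controls. The other Kcnd3 probe sets did not share that reading. At 1 hr, rc_AI230211_s_at gave 0.25 (SE 0.78), from 40.3, 18 and 31.4 in controls, 61.1 and 18.6 at 1 hr and 42.3, 12.4 and 62.8 at 2 hr. M74898cds_s_at gave 0.11 (SE 0.23) from readings of 7.0 to 11.1, around the floor.

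Kcnq3 encodes a subunit of the M-current, a slow brake on neuronal firing, and Kcnq1 is best known from heart and inner ear. Kcnq3 (AF091247_s_at) read 97.3, 88.9 and 107.5 in controls, 139.5 and 97.6 at 1 hr and 85.9, 100.7 and 92.7 at 2 hr. Only 1 hr replicate 1 stood above the rest, and the log2 change was -0.07 (SE 0.28) at 2 hr and 0.26 (SE 0.32) at 1 hr. The other Kcnq3 probe set and Kcnq1 were below the floor on all arrays.

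The Kcnh genes encode the ether-à-go-go family: Kcnh1 and Kcnh5 (EAG), Kcnh2, Kcnh6 and Kcnh7 (ERG) and Kcnh3, Kcnh4 and Kcnh8 (ELK). All 11 probe sets were tested. Of these, 7 read higher and 4 lower at 2 hr against control, with a median log2 change of 0.019. At 1 hr 7 read higher and 4 lower as well, with a median of 0.214, and at 2 hr against 1 hr 4 read higher and 7 lower.

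Kcnh3 (AF073892_s_at), an ELK subunit of forebrain neurons, read 77.0, 65.0 and 35.5 in controls, 95.4 and 88.5 at 1 hr and 78.4, 125.9 and 77.0 at 2 hr. No exposed array was below any control, though 2 hr replicate 3 equalled control replicate 1. The log2 change was 0.70 (SE 0.39) at 2 hr, 0.71 (SE 0.44) at 1 hr and 0.70 (SE 0.35) for any exposure (limma, adjusted p = 1, 1 and 0.999). Without control replicate 3, which had the lowest reading, the change was 0.37 at 2 hr and 0.37 for any exposure. The other Kcnh3 probe set (AJ007627_at) read 1468.2, 1161.5 and 501.0 in controls, 924.5 and 996.8 at 1 hr and 998.0, 845.0 and 1006.2 at 2 hr. There the controls spanned all exposed arrays, and the log2 change was -0.0033 (SE 0.40) at 2 hr and 0.0067 (SE 0.36) for any exposure. In both Kcnh3 probe sets control replicate 3 was the lowest array.

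Kcnh2 (U75210_s_at), which encodes the ERG channel of heart and neurons, was the only potassium channel probe set with all exposed arrays above all controls, and it is named for that, after its values were seen. Its intensities were 167.1, 138.8 and 154.6 in controls, 237.3 and 185.7 at 1 hr and 171.3, 196.9 and 179.1 at 2 hr. These give log2 changes of 0.25 (SE 0.24) at 2 hr, 0.46 (SE 0.27) at 1 hr and 0.35 (SE 0.22) for any exposure, with an adjusted p (limma) of 0.999 in the last. The other Kcnh2 probe set (Z96106_at) read 83.8, 100.2 and 20.5 in controls, 17.8 and 69.6 at 1 hr and 97.8, 103.7 and 46.2 at 2 hr, with the 3 arrays of highest top intensity as its 3 lowest. Its log2 change was 0.48 (SE 0.72) at 2 hr and -0.66 (SE 0.80) at 1 hr.

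Kcnh4 read 56.5, 69.6 and 63.1 in controls, 126.8 and 78.4 at 1 hr and 55.5, 68.9 and 67.5 at 2 hr. The 1 hr arrays were above the other 6, and the controls and 2 hr arrays covered the same range. The log2 change was 0.67 (SE 0.37) at 1 hr and 0.02 (SE 0.33) at 2 hr against control (limma, adjusted p = 1 in both). The change at 1 hr was 0.32 without 1 hr replicate 1 and 1.01 without 1 hr replicate 2.

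Kcnh8 (AJ007632_s_at) read 47.6, 45.5 and 76.4 in controls, 85.7 and 63.3 at 1 hr and 41.4, 35.2 and 43.3 at 2 hr. The 2 hr arrays were the 3 lowest of the 8. Its log2 change was -0.89 (SE 0.42, 95% interval -1.84 to 0.06) at 2 hr against 1 hr and -0.46 (SE 0.38) at 2 hr against control (limma, adjusted p = 1 in both). The other Kcnh8 probe set (AF061957_at) read 5.3, 6.8 and 19.1 in controls, 4.8 and 6.2 at 1 hr and 9.9, 13.5 and 12.0 at 2 hr. Each 1 hr array was below the floor and all 2 hr arrays were above it, a log2 change of 0.36 (SE 0.37) between them, opposite in sign to the first.

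Kcnh6 read 13.5, 25.6 and 22.9 in controls, 11.5 and 25.8 at 1 hr and 38.6, 28.4 and 22.7 at 2 hr. A low 1 hr replicate 1 and a high 2 hr replicate 1 gave a log2 change of 0.76 (SE 0.52) at 2 hr against 1 hr, and 1 hr replicate 2 lay within the 2 hr range. The change was 0.18 without 1 hr replicate 1 and 1.34 without 1 hr replicate 2. Kcnh1, Kcnh5 and Kcnh7 had log2 changes of 0.14, -0.23 and -0.62 at 2 hr against control, with standard errors of 0.51, 0.62 and 0.52.

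Kcnf1, Kcng1, Kcns1, Kcns3 and Kcnv1 encode electrically silent subunits, which form no channel alone and modify Kcnb channels. At 2 hr Kcnf1 read higher and the other 4 lower. Kcns3 read 99.1, 91.9 and 56.3 in controls, 53.0 and 71.7 at 1 hr and 67.8, 36.8 and 44.5 at 2 hr. The controls of replicates 1 and 2 were above all 5 exposed arrays and control replicate 3 lay among them. The log2 change was -0.74 (SE 0.40, 95% interval -1.63 to 0.16) at 2 hr and -0.38 (SE 0.45) at 1 hr (limma, adjusted p = 1 in both). Kcnv1 showed -0.51 (SE 0.39) at 2 hr, from 73.1 to 123.8 in controls and 55.1 to 101.3 at 2 hr. Kcns1, with 130, 143.8 and 12.0 in its controls, had a standard error of 0.95, the widest of the tested potassium channels, beside a change of -0.37. Kcnf1 and Kcng1 had 0.10 (SE 0.37) and -0.10 (SE 0.40).

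Of the accessory subunits, Kcnab1, Kcnab2 and Kcnab3 encode the cytoplasmic beta subunits of Kv1 channels, of which that of Kcnab1 speeds their inactivation. Kcnab1 at 1 hr had the largest change of any tested potassium channel probe set in these fits, and Kcnab1 was the only one below an unadjusted p of 0.05. Its intensities were 39.7, 47.7 and 89.1 in controls, 14.3 and 22.6 at 1 hr and 41.1, 13.3 and 45.4 at 2 hr. Both 1 hr arrays were below all controls, 2 hr replicate 2 was the lowest array, and 2 hr replicates 1 and 3 lay within the control range.

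For Kcnab1 the log2 change at 1 hr was -1.62 (SE 0.65, 95% interval -3.06 to -0.17), a reading 3.07-fold lower, with a limma adjusted p of 1. At 2 hr it was -0.92 (SE 0.58), and for any exposure -1.27 (SE 0.52), 2.41-fold lower, with adjusted p of 1 and 0.999. At 1 hr the unadjusted p was above 0.05 with the replicate block, with the block of low 5S reading, with no filter, and without control replicate 3, 1 hr replicate 1 or 1 hr replicate 2. Kcnd3 (U92897_s_at) was below it instead of or beside Kcnab1 with quantile normalization, median centring, the replicate block and without 2 hr replicate 2. Leaving out each array in turn gave -1.95 to -1.28 for Kcnab1 at 1 hr and -1.24 to -0.36 at 2 hr, the last without 2 hr replicate 2. The 2 hr change was -0.08 among the arrays of low 5S reading and -1.86 among the others. The first value rests on 2 hr replicate 1 alone. The second rests on control replicate 3 alone, the highest Kcnab1 reading at 89.1. Kcnab2 (rc_H33656_at) read 461.3 to 1056.1 in controls and 748.8 to 1058.6 at 2 hr, and its log2 change was 0.14 (SE 0.38). Kcnab2 (X76724_at) and Kcnab3 had -0.21 (SE 0.32) and -0.0031 (SE 0.83).

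Kcne1 encodes the small membrane subunit that joins Kcnq1 in the slow cardiac current. Its probe set D10709exon_s_at read 45.2, 33.9 and 42.3 in controls, 36.5 and 24.7 at 1 hr and 18.2, 10.3 and 40 at 2 hr. Replicates 1 and 2 of 2 hr were the lowest of the 8 arrays and 2 hr replicate 3 stayed within the control range. The log2 change at 2 hr was -1.04 (SE 0.53, 95% interval -2.23 to 0.15), 2.05-fold lower (limma, adjusted p = 1). It was -0.57 without 2 hr replicate 2 and -0.08 within the arrays of highest top intensity. The other Kcne1 probe set was below the floor on all arrays.

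Kcnmb1, the beta subunit known from vascular smooth muscle, had probe sets that read in opposite directions. AF020712_at read 80.4, 157.4 and 126.0 in controls, 201.2 and 134.9 at 1 hr and 121.4, 195.8 and 185.1 at 2 hr. Its groups overlap, and its log2 change was 0.49 (SE 0.34) at 2 hr, or 0.22 without control replicate 1, and 0.50 (SE 0.39) at 1 hr. AB010963_s_at read 31.2, 17.1 and 23.2 in controls, 15.0 and 12.0 at 1 hr and 20, 23.0 and 9.8 at 2 hr. Both 1 hr arrays were below all controls there, and its log2 changes were -0.49 (SE 0.43) and -0.79 (SE 0.48). All 4 adjusted p (limma) were 1.

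None of the tested channels opened by calcium or sodium differed between the groups beyond their spread. Among them, Kcnma1 encodes the large-conductance BK channel. At 2 hr its 3 tested probe sets gave log2 changes of 0.21 (SE 0.45), -0.19 (SE 0.29) and -0.50 (SE 0.45). Kcnn1, a small-conductance SK channel, read 77.3, 78.3 and 45.6 in controls, 73.5 and 72.3 at 1 hr and 60.7, 89.6 and 74.8 at 2 hr. Control replicate 3 was the lowest array, and the log2 change was 0.19 (SE 0.36) at 2 hr. Kcnt1, the sodium-activated Slack channel, read 5.7 to 22.1, with the 3 arrays of highest top intensity as its 3 lowest. Kcnn3, the other SK gene on the array, was below the floor throughout.

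The inward rectifiers, the Kcnj genes, were the largest group, with 22 probe sets for 15 genes and 19 tested. They include the astrocyte channel Kcnj10, the G protein-gated channels Kcnj3, Kcnj5, Kcnj6 and Kcnj9, the pore subunits Kcnj8 and Kcnj11 of ATP-sensitive channels, and Kcnj1, known from kidney. At 2 hr against control 7 read higher and 12 lower, with a median log2 change of -0.086, and at 1 hr 7 read higher and 12 lower, with a median of -0.031. From 1 hr to 2 hr, 12 read higher and 7 lower.

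Kcnj10 gave opposite readings from its probe sets at 1 hr. U27558_at read 7.9, 6.3 and 8.4 in controls, 15.8 and 10.7 at 1 hr and 9.3, 9.2 and 6.8 at 2 hr. All controls were below the floor and both 1 hr arrays above it. Read against the floor, the 1 hr level was 1.43-fold higher, a log2 change of 0.51 (SE 0.26, limma adjusted p = 1). This change was 0.31 with a pseudocount of 16 in place of the floor and 0.80 with a floor at the 5th percentile. X83585cds_s_at read 54.8, 47.0 and 36.2 in controls, 17.3 and 33.5 at 1 hr and 41.3, 30.3 and 25.9 at 2 hr. There both 1 hr arrays were below all controls, a log2 change of -0.91 (SE 0.49), and at 2 hr it was -0.51 (SE 0.44). The 1 hr changes rest on 2 arrays: without 1 hr replicate 1 they were 0.23 for U27558_at and -0.44 for X83585cds_s_at, and without 1 hr replicate 2 they were 0.80 and -1.39. The 5 astrocyte markers, with mean log2 levels of 7.31 to 8.23 in controls and 7.88 to 8.09 at 1 hr, overlapped between these groups.

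Kcnj5 read 9.1, 9.3 and 10.5 in controls, 17.2 and 10.9 at 1 hr and 7.2, 9.5 and 1.7 at 2 hr. The 1 hr arrays were the highest pair, with control replicate 3 just below the lower of them. Control replicate 1 was at the floor of 9.1, and 2 hr replicates 1 and 3 were below it. The log2 change was 0.51 (SE 0.28) at 1 hr against control and -0.57 (SE 0.28) at 2 hr against 1 hr (limma, adjusted p = 1 in both). Without 1 hr replicate 1 these were 0.18 and -0.24, and without 1 hr replicate 2 they were 0.84 and -0.90. With a floor at the 5th percentile they were 0.51 and -1.32, so the floor sets part of the size of the change at 2 hr against 1 hr. Kcnj9 had 0.05 (SE 0.27) at 2 hr, and the Kcnj3 probe sets had -0.09 (SE 0.61) and -0.08 (SE 0.53).

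Kcnj1 (AF081366_s_at) was the only potassium channel probe set with all exposed arrays below all controls. Its intensities were 18.3, 18.8 and 18.3 in controls, 6.4 and 15.8 at 1 hr and 12.6, 11.8 and 16.1 at 2 hr. The controls agreed closely, and the exposed arrays lay between them and the floor or below it. The log2 change for any exposure was -0.54 (SE 0.29, 95% interval -1.19 to 0.10, limma adjusted p = 0.999), and -0.34 without 1 hr replicate 1. The other Kcnj1 probe sets gave smaller values in that comparison. AF081365_s_at read 46.2, 30.5 and 61.9 in controls, 77.4 and 36.8 at 1 hr and 26.4, 38.8 and 50.3 at 2 hr, a change of 0.01 (SE 0.43). S78154_at read 84.7, 100.2 and 74.6 in controls, 88.7 and 90.6 at 1 hr and 86.6, 117.9 and 36.3 at 2 hr, a change of -0.10 (SE 0.40).

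Kcnj11 (D86039_at) read 250.2, 273.1 and 187.8 in controls, 199.2 and 267.7 at 1 hr and 194.9, 277.6 and 266.2 at 2 hr. The groups covered the same range, and the log2 change was 0.06 (SE 0.27, 95% interval -0.56 to 0.67) at 2 hr. Kcnj8, the vascular partner of the same channel type, read 44.1 to 58.7 in controls, 58.3 to 71.7 at 1 hr and 44.9 to 62.5 at 2 hr, with a log2 change of 0.0051 (SE 0.35) at 2 hr. Kcnj15 read 38.2, 24.6 and 15.9 in controls, 19.7 and 20 at 1 hr and 53.8, 43.0 and 19.2 at 2 hr. Replicates 1 and 2 of 2 hr were the highest of the 8 arrays and replicate 3 was below both 1 hr arrays. Its log2 change was 0.84 (SE 0.58) at 2 hr against 1 hr (limma, adjusted p = 1), 0.53 without 2 hr replicate 1, 1.28 without 2 hr replicate 3 and -0.04 within the arrays of highest top intensity.

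Among the other rectifiers, Kcnj4, a strong rectifier of forebrain neurons, had log2 changes of -0.18 (SE 0.70) and -0.19 (SE 0.26) at 2 hr. Kcnj12, Kcnj14 and Kcnj16 had -0.59 (SE 0.49), 0.07 (SE 0.43) and, from a pair of probe sets, -0.09 (SE 0.61) and 0.19 (SE 0.50). Kcnj2, Kcnj6 and Kcnj13 were not tested, and Kcnj6, the main G protein-gated subunit of neurons, read 2.0 to 4.7 on 7 arrays and 24.4 on the eighth.

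The K2P genes on the array were Kcnk1, Kcnk3 and Kcnk5. Kcnk3 encodes TASK-1, a leak channel known to be opened by volatile anaesthetics. Kcnk1 (TWIK-1) read 288.8, 247.7 and 155.8 in controls, 218.6 and 300.9 at 1 hr and 341.2, 195.6 and 242.9 at 2 hr. The groups overlap widely, and the log2 change was 0.18 (SE 0.33, 95% interval -0.55 to 0.91) at 2 hr and 0.20 (SE 0.36) at 1 hr. Kcnk3 (AF031384_at) read 30.9, 23.2 and 15.5 in controls, 16.1 and 33.8 at 1 hr and 14.2, 54.4 and 35.7 at 2 hr. Its 2 hr arrays held both the lowest and the highest value of the 8, and its log2 change was 0.44 (SE 0.58, 95% interval -0.86 to 1.73) at 2 hr. Kcnk5 read 8.9, 25.0 and 50.4 in controls and 20.9, 27.6 and 21.0 at 2 hr, with a log2 change of 0.03 (SE 0.58). All 3 tested K2P probe sets read higher at 2 hr, each by less than 1 standard error.

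**Figure D3:**
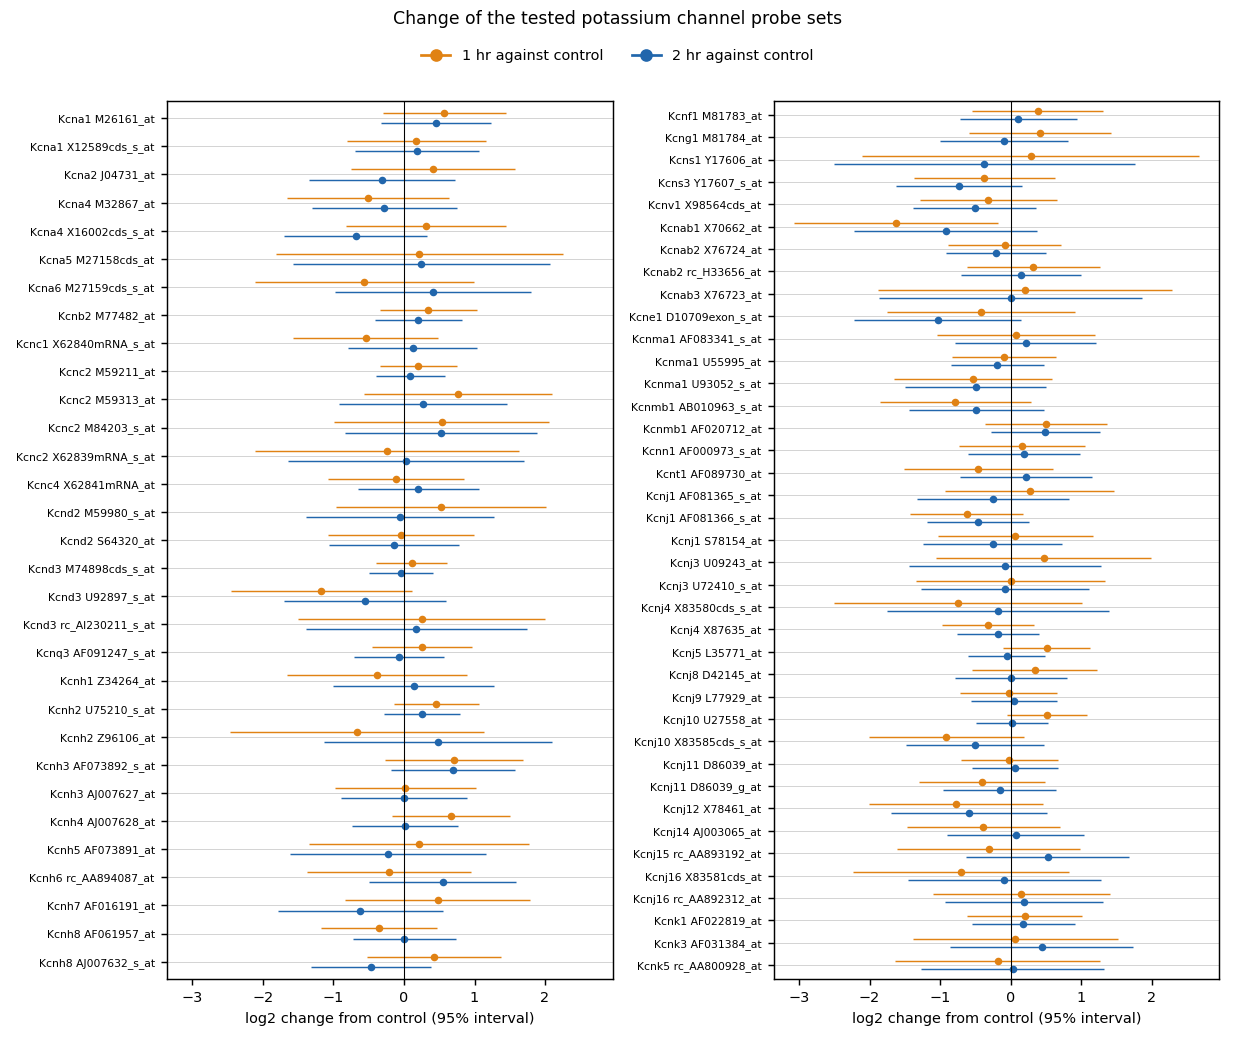
Log2 change from control of each of the 70 tested potassium channel probe sets at 1 hr (orange) and 2 hr (blue), with the 95% interval of the limma fit as a line. All intervals cross 0 except that of Kcnab1 at 1 hr, at -3.06 to -0.17, before any adjustment for the 7770 probe sets tested.

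**Figure D4:**
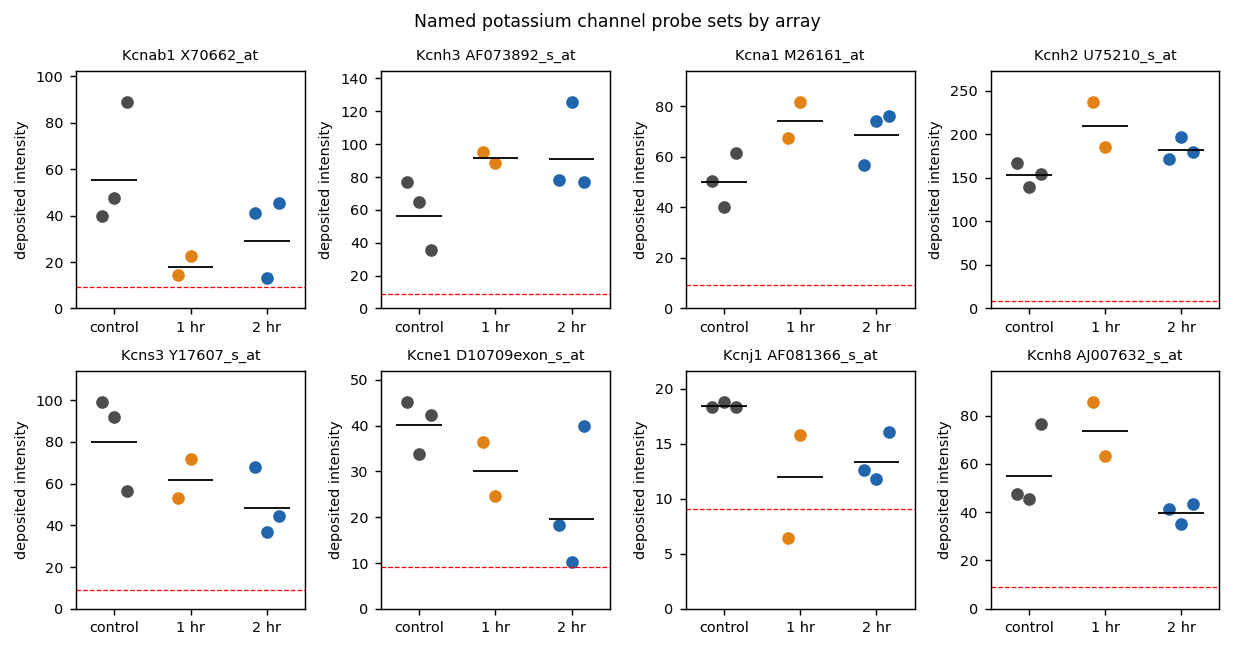
Deposited intensity (linear axis from 0) on each array for 8 probe sets described above, by group, with the floor of 9.1 as a dashed line. Bars are the mean of the floored log2 values of each group, turned back to intensity. Kcnab1 was lower on both 1 hr arrays than on any control, and Kcnh2 (U75210_s_at) and Kcnj1 (AF081366_s_at) are the only ones with no overlap between exposed and control arrays.

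Probe sets of 1 gene often pointed in different directions. Of the 22 genes with several probe sets, 17 had several tested, with 28 pairs between them. At 2 hr against control the readings of 9 of the 17 genes differed in sign, and at 1 hr those of 13 did, at 2 hr against 1 hr 10 and for any exposure 12. Pairs of 1 potassium channel gene had the same sign in 60.7% at 2 hr against control, beside 59.1% of 2650 pairs of other genes on the array. The same share was 35.7% beside 57.6% at 1 hr, 46.4% beside 56% at 2 hr against 1 hr, and 39.3% beside 59.1% for any exposure. Genes with more than a pair of tested probe sets, such as Kcnc2, enter with several pairs that share readings. Some of their probe sets lie near the floor. The 28 pairs are therefore not independent, and the difference in shares was not tested. Probe sets can read different stretches or splice forms of a transcript, so a gene's change is given here for each of them.

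Some potassium channels parted by array, not by exposure. The 3 arrays of highest top intensity include 1 array of each group, and 11 of the 70 tested probe sets (15.7%) had all 3 of these arrays above or all below the other 5, beside 14.9% of all tested. Kcnd2 (M59980_s_at) read 113.5, 133.8 and 98.6 on them and 32.2 to 53.2 on the rest. Kcnh2 (Z96106_at) read 20.5, 17.8 and 46.2 on them and 69.6 to 103.7 on the rest. Kcnma1 (AF083341_s_at) and Kcnj1 (AF081365_s_at) were higher on these 3 arrays, and Kcnh1, Kcnab3 and Kcnj12 lower. The 3 arrays of low 5S reading parted 5 probe sets (7.14%), those of Kcna1 (M26161_at), Kcng1, Kcnj12, Kcnj10 (X83585cds_s_at) and Kcnh1, beside 9.86% of all tested. The 5S group holds 2 controls and no 1 hr array. With either array group as a block in the fit, no potassium channel probe set passed an adjusted p of 0.05 (limma). The changes chosen by smallest p kept their sign. The block of low 5S reading took Kcnj10 (X83585cds_s_at) at 1 hr from -0.91 to -0.56, Kcns3 at 2 hr from -0.74 to -0.48 and Kcna1 (M26161_at) for any exposure from 0.52 to 0.30. At 2 hr against 1 hr it took Kcnc1 from 0.67 to 0.40 and Kcnj15 from 0.84 to 0.53.

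**Figure D5:**
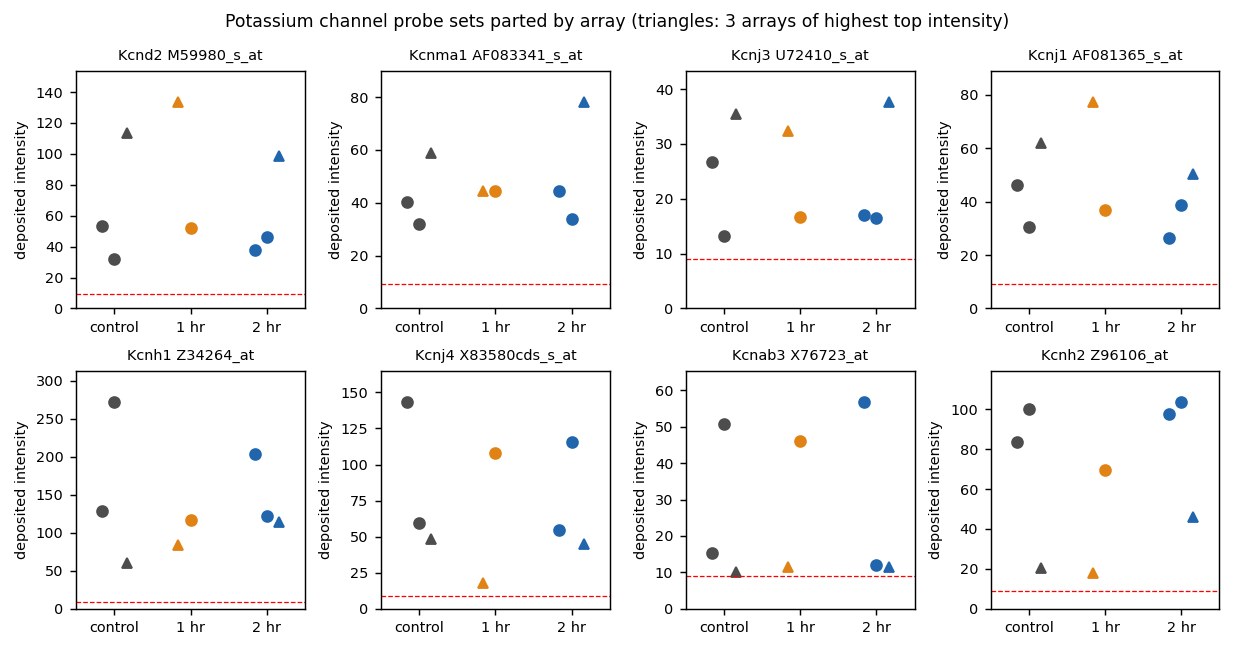
Deposited intensity (linear axis from 0) by group for 8 potassium channel probe sets whose 3 arrays of highest top intensity (triangles) lie all above or all below the other 5 (circles), with the floor of 9.1 as a dashed line. In every panel the triangles, 1 in each group, stand to 1 side, for example at 98.6 to 133.8 against 32.2 to 53.2 for Kcnd2.

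Genes whose products bind, anchor or regulate potassium channels were read from a list of 47, of which 27 were on the array, all tested. Each was read from 1 probe set, the brightest over all arrays, so other probe sets of the same gene may read otherwise. None of them passed an adjusted p of 0.05 in any comparison (limma). Only Sgk1 passed an unadjusted p of 0.05 (limma), at 2 hr, at 1 hr and for any exposure against control. Of all tested, 1.79%, 2.68% and 2.21% did so. At 2 hr 9 read higher and 18 lower, with a median log2 change of -0.083 (52.3% higher and 0.018 for all tested). At 1 hr 13 read higher and 14 lower, with a median of -0.017 (55.8% higher and 0.054 for all tested). From 1 hr to 2 hr, 14 read higher and 13 lower (47.4% of all tested higher). For any exposure 10 read higher and 17 lower (55.2% of all tested higher). Sgk1, a kinase that raises the surface level of several potassium channels, read 87.9, 134.4 and 79.3 in controls, 255.9 and 202.1 at 1 hr and 391.3, 361.0 and 322.8 at 2 hr. Its groups did not overlap, and its log2 change was 1.87 (SE 0.28) at 2 hr and 1.22 (SE 0.31) at 1 hr (limma, adjusted p = 0.492 and 1). Dlg4, the scaffold PSD-95 that clusters Kv1 and Kcnj channels, read 337.9 to 485.0 in controls, 502.3 to 629.4 at 1 hr and 530.7 to 623.5 at 2 hr. Its log2 change was 0.50 (SE 0.25) at 2 hr (limma, adjusted p = 1). Ank3, which anchors channels at the axon initial segment, read lower on all 2 hr arrays than on both 1 hr arrays, by a log2 change of -0.41 (SE 0.32). Of the 27, the arrays did not overlap for 2 higher and 1 lower at 2 hr against control (2.9% and 2.55% of all tested), and for 2 higher and 0 lower at 1 hr (7.54% and 5.11%). For any exposure against control they did not overlap for 2 higher, Sgk1 and Dlg4, and 0 lower (0.927% and 1%), a difference that was not tested. From 1 hr to 2 hr they did not overlap for 1 higher and 2 lower (5.98% and 7.82%). The lower ones were Gnb1, a G protein beta subunit that opens Kcnj channels, with -0.45 (SE 0.27) at 2 hr against control and -0.26 (SE 0.30) at 2 hr against 1 hr, and Ank3 in the latter.

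Several of these channels are better known from other tissues, and markers of some of those tissues were also read. The 3 kidney markers had a mean log2 level of 4.31 to 4.57 in controls, 3.92 to 5.03 at 1 hr and 3.66 to 5.08 at 2 hr, with 2 of 3 above the floor on all arrays. The 7 skeletal and heart muscle markers had 5.11 to 5.58 in controls, 4.88 to 5.28 at 1 hr and 4.87 to 5.40 at 2 hr. No smooth muscle marker was on the lists. The choroid plexus markers stood at 8.35 on 1 hr replicate 2 and at 5.78 to 6.76 on the other 7 arrays. The part of such tissues in the readings of Kcnj1, Kcne1 and Kcnmb1 was not tested.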

How the data were processed

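The series holds 8 arrays, 3 of control rats, 2 of 1 hr and 3 of 2 hr. The deposited table gives the authors' intensity for each of 8799 probe sets per array, on a linear scale, with no detection calls. No source used here names the software, the scaling or a genome build. The 59 Affymetrix control probe sets were left out. Names came from the platform annotation (7006 probe sets with 1 symbol, 308 with several, 1426 with none). No pair of arrays shared more than 70 of 8740 values.

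Intensities were floored at 9.1 (20th percentile) and log2-transformed with no further normalization. Probe sets above the floor on at least 2 arrays were fitted together in limma 3.58.1 (R 4.3.3; 1 mean per group, eBayes with trend, 5 residual degrees of freedom), with two-sided p-values adjusted by Benjamini-Hochberg over 7770. The script was tested on simulated data. The potassium channel genes, the gene lists and the tests were chosen with earlier results of these data known. Listed partner and marker genes were each read from their brightest probe set. Every member gene is named. Values on each array are given for the 3 probe sets of smallest p per comparison and direction (2 for any exposure), for probe sets of the same gene that differ in sign there, and for the brightest of each subfamily; Kcnh2 was added after its values were seen. Alternatives were a floor at the 5th or 40th percentile, a pseudocount of 16, quantile or median normalization, other filters, a block for array groups or replicate number, and leaving out each array.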

Additional observations from a re-analysis of the deposited data

Results flagged for a closer look

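For 3 probe sets the 1 hr arrays all lay above the mean of the controls and the 2 hr arrays all below it. Kcnh7 (AF016191_at), an ERG channel, had a log2 change of -1.09 (SE 0.58) at 2 hr against 1 hr, from 27.0, 28.1 and 37.5 in controls, 48.7 and 37.1 at 1 hr and 30.3, 28.3 and 9.2 at 2 hr. Kcnh8 (AJ007632_s_at) had -0.89 (SE 0.42) and Kcnj5, with control and 2 hr readings around or below the floor, had -0.57 (SE 0.28) in the same comparison. The limma test of the difference gave an adjusted p of 1 for each. Such a pattern was present in 3 of the 70 tested potassium channel probe sets (4.29%) and in 248 of all 7770 tested (3.19%). Single arrays that stand apart were not looked for by a formal test, as the groups hold 2 or 3 arrays.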

How the results depend on the processing

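No potassium channel probe set passed an adjusted p of 0.05 (limma) in any comparison under any of the 19 or 20 alternatives run for it. The lowest adjusted p over these alternatives was 0.957 at 2 hr against control, 0.258 at 1 hr against control, 0.205 at 2 hr against 1 hr and 0.69 for any exposure. At an unadjusted p of 0.05 (limma), 0 to 2, 1 to 5, 0 to 4 and 0 to 2 potassium channel probe sets passed in the same order. Fits that leave 1 array at 1 hr are not counted in these ranges. The share of all tested probe sets that passed under each alternative was not computed, so these counts have no background beside them. The median log2 change of the 70 tested probe sets took either sign: -0.0735 (median centring) to 0.015 (block of low 5S reading) at 2 hr, -0.0827 (without control replicate 3) to 0.1356 (block of low 5S reading) at 1 hr, -0.0879 (block of low 5S reading) to 0.027 (without 1 hr replicate 2) at 2 hr against 1 hr, and -0.0943 (median centring) to 0.0628 (without control replicate 1) for any exposure. Over all 82 probe sets the median was 0, which the 9 probe sets at the floor on every array help to hold there, so it says nothing of stability. No change chosen by smallest p turned its sign under the settings in which its probe set was fitted. The changes of Kcnh2 (U75210_s_at) and Kcnh7 were not followed under other settings. At 1 hr the change of Kcnd3 (U92897_s_at) ran from -1.54 without 1 hr replicate 1 to -0.30 with a floor at the 40th percentile. It was -1.45 with the replicate block. Same-numbered arrays had deviations correlated from -0.331 to 0.286. In groups of 2 and 3 arrays the deviations are tied to each other, so these values cannot show whether the numbers pair the arrays. With the replicate block, 0 potassium channel probe sets were called, and Kcnab1 stood at -1.29 at 1 hr. Groups of 2 and 3 arrays and readings near the floor limit what could be seen.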
